A study of Mus musculus with 48 samples.

Results

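A set of 10 genes that mark immature neurons was followed across both brain regions, the 3 ages and both genotypes of this mouse study: Dcx, Cd24a, Dpysl3, Sox4, Sox11, Tubb2b, Tubb3, Stmn2, Marcksl1 and Gap43. They were chosen by symbol, and each matched exactly 1 of the 54838 Ensembl gene IDs in the deposited count table, so the set is 10 of 54838 genes. The animals were male mice, either wild type (WT) or Aag-/-. Aag-/- mice lack alkyladenine DNA glycosylase, a base excision repair enzyme that is encoded by the gene Mpg and removes alkylated bases from DNA. Hippocampus and prefrontal cortex were taken at postnatal day 5 (P5), in juveniles of 6 weeks (6W) and in adults labelled 6M, whose stated age runs from 4 months to 6 months. The 12 groups (tissue by genotype by age) hold 4 animals each, 48 libraries in all, and no group received a treatment. The labels name no promoter, Cre driver or background strain, and all animals were male.

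A neuron that has just left the cell cycle must migrate, send out an axon tipped with a growth cone, and build its microtubule skeleton from scratch. Doublecortin (Dcx), the beta-tubulins Tubb2b and Tubb3, stathmin-2 (Stmn2), the collapsin response mediator Dpysl3, the growth-cone protein Gap43, the MARCKS-like actin regulator Marcksl1 and the surface glycoprotein Cd24a serve these steps, and the SoxC transcription factors Sox4 and Sox11 switch on several of them. In the adult rodent brain new neurons are still made in the dentate gyrus of the hippocampus and in the subventricular zone, whose neuroblasts travel to the olfactory bulb, whereas the cortex itself makes few or none, so Dcx is widely used in sections as a mark of adult neurogenesis.

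Promoter sequence was at hand for 5 of the 10 genes (Marcksl1, Tubb3, Sox11, Sox4 and Dcx) and is credited to RefSeq on GRCm38.p6. Cd24a, Dpysl3, Tubb2b, Stmn2 and Gap43 are named only. The 250 bases before the annotated start are shown for 3 genes that fell together after P5 and that stand for a growth-cone gene and the pair of SoxC factors. Each is written 5′ to 3′ on the gene's own strand, and capitals mark the letters CCAAT or their reverse complement ATTGG. The windows are chr4:129513331-129513580 (plus strand) for Marcksl1, chr12:27342719-27342968 (minus strand) for Sox11 and chr13:28953700-28953949 (minus strand) for Sox4, whose last bases fall inside the GENCODE gene.
Marcksl1: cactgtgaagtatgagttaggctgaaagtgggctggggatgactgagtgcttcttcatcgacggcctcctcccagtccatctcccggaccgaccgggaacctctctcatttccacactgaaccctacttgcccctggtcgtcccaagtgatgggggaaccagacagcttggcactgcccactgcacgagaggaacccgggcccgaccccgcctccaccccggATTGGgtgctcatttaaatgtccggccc
Sox11: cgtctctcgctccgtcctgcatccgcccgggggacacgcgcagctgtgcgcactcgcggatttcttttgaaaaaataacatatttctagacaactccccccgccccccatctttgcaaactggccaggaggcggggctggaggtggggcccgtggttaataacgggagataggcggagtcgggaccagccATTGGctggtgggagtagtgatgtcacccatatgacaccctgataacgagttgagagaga
Sox4: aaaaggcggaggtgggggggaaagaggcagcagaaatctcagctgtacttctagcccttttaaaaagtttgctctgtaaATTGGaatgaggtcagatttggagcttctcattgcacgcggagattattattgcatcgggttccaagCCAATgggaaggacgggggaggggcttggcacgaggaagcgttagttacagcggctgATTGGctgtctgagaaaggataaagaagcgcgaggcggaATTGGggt
Counted from the first capital letter to the start, the box lies 28 bases upstream in Marcksl1 and 60 bases upstream in Sox11, and Sox4 has 4 of them, at 171, 104, 47 and 8 bases. In windows of 300 bases, which run on past the start, CCAAT was found on either strand in all 5 of the 5 matched genes and in 37.4% of 32851 RefSeq promoters of the same length. Of the other 6 motifs searched on both strands, the GC box GGGCGG occurred in 3 of 5 (35.7% of all promoters), the SOX core ACAANG in 2 (41.2%), the E-box CAGNTG in 2 (51.4%) and TATAAA in 1, Dcx (13.6%). The leading part of the element bound by the neuronal repressor REST, TTCAGCACC, was found in 0 of 5 (0.371% of all promoters), and its trailing part GGACAG in 1, Tubb3 (22.2%). A match is a description of these letters in these windows and not of binding, and none of the 7 motifs contains another.

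In GENCODE release M21 on GRCm38, Dcx (ENSMUSG00000031285) lies on chromosome X at 143855842-143933311, minus strand, and Cd24a (ENSMUSG00000047139) on chromosome 10 at 43578284-43584265, plus strand. Dpysl3 (ENSMUSG00000024501) lies on chromosome 18 at 43320984-43438286, minus strand, and Gap43 (ENSMUSG00000047261) on chromosome 16 at 42248442-42340651, minus strand. Sox4 (ENSMUSG00000076431, chromosome 13, 28948919-28953713) and Sox11 (ENSMUSG00000063632, chromosome 12, 27334264-27342574) are genes of 1 exon on the minus strand. Tubb2b (ENSMUSG00000045136, chromosome 13, 34126748-34130466, minus strand) and Tubb3 (ENSMUSG00000062380, chromosome 8, 123411424-123422015, plus strand) have 4 merged exon blocks each. Stmn2 (ENSMUSG00000027500) spans 8509360-8561606 on chromosome 3, plus strand, and Marcksl1 (ENSMUSG00000047945) 129513581-129515985 on chromosome 4, plus strand. All 10 are protein coding. Values of 2 genes carry a limit from the counting, whose treatment of strand and of shared reads is not given in the sources used here. In Tubb2b 43.1% of the 31-base words also occur in other genes on the same strand, mainly its neighbour Tubb2a (35.2%), and in Sox4 54.3% occur on the opposite strand, in the antisense gene Gm26735, which itself held at most 0.744 CPM (the count relative to the library's TMM-scaled size) in any library. For the other 8 genes the shared part was at most 6.86%.

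Total counts ran from 21615824 to 47343993 per library, with a median of 26136099.5. Mpg, the deleted gene, was at 0.944 to 2.53 CPM in the 24 Aag-/- libraries and at 4.46 to 8.93 CPM in the 24 WT libraries, without overlap. Regional markers separated the tissues as labelled in all 48 libraries: summed hippocampal markers were 635.6 to 1534 CPM in hippocampus and 139.3 to 334.1 CPM in prefrontal cortex, and summed neocortical markers 256.7 to 406.6 and 730.4 to 1453 CPM. In such sums 3 libraries stood apart from the others of their group. WT hippocampus 6M replicate 1 had 635.6 CPM of hippocampal markers against 967.3 to 1013, and replicate 1 of prefrontal cortex at P5 had striatal markers of 272.4 CPM (WT) and 266.4 CPM (Aag-/-) against 63.0 to 80.3. In addition, 6 of the 16 prefrontal libraries of 6W and 6M were higher than the other 10 in olfactory bulb markers (Eomes, Tbx21, Cdhr1, Doc2g and Th), at a sum of 56.1 to 120.2 CPM against 16.6 to 38.5. Mitochondrial genes took the largest share of counts in hippocampus replicate 1 of each 6W and 6M group, at 31.6% (WT 6W), 31.4% (WT 6M), 28.05% (Aag-/- 6W) and 24.1% (Aag-/- 6M), against 15.7% to 21.1% in the other 12 hippocampi of these ages. All 3 sets of libraries were chosen after the values had been seen. Without the 4 of high mitochondrial share no count of called members moved by more than 1.5 times, but some members called between the tissues changed. Sox4 then passed at 6W (adjusted p = 0.0183 by edgeR) and 6M (0.03) in WT mice and at 6W in Aag-/- mice (0.0353). Stmn2 lost its call at 6W in WT mice.

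From P5 to 6W all 10 genes fell in both tissues and both genotypes, and no juvenile library overlapped a P5 library for any of them. Of all genes tested, 30.6% were called lower in WT hippocampus, 30.3% in WT prefrontal cortex, 31% in Aag-/- hippocampus and 31.2% in Aag-/- prefrontal cortex, and 26.6%, 27.8%, 28.2% and 24.7% were lower without overlap. The median log2 change over the 10 genes was -3.10 in WT hippocampus, -3.36 in WT prefrontal cortex, -3.27 in Aag-/- hippocampus and -3.46 in Aag-/- prefrontal cortex, while the median over all tested genes lay between -0.02 and 0.02. A call here means an adjusted p (Benjamini-Hochberg over all tested genes) under 0.05 in edgeR's quasi-likelihood test. In whole tissue, fewer cells of a type and less RNA per cell cannot be told apart.

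**Figure D1:**
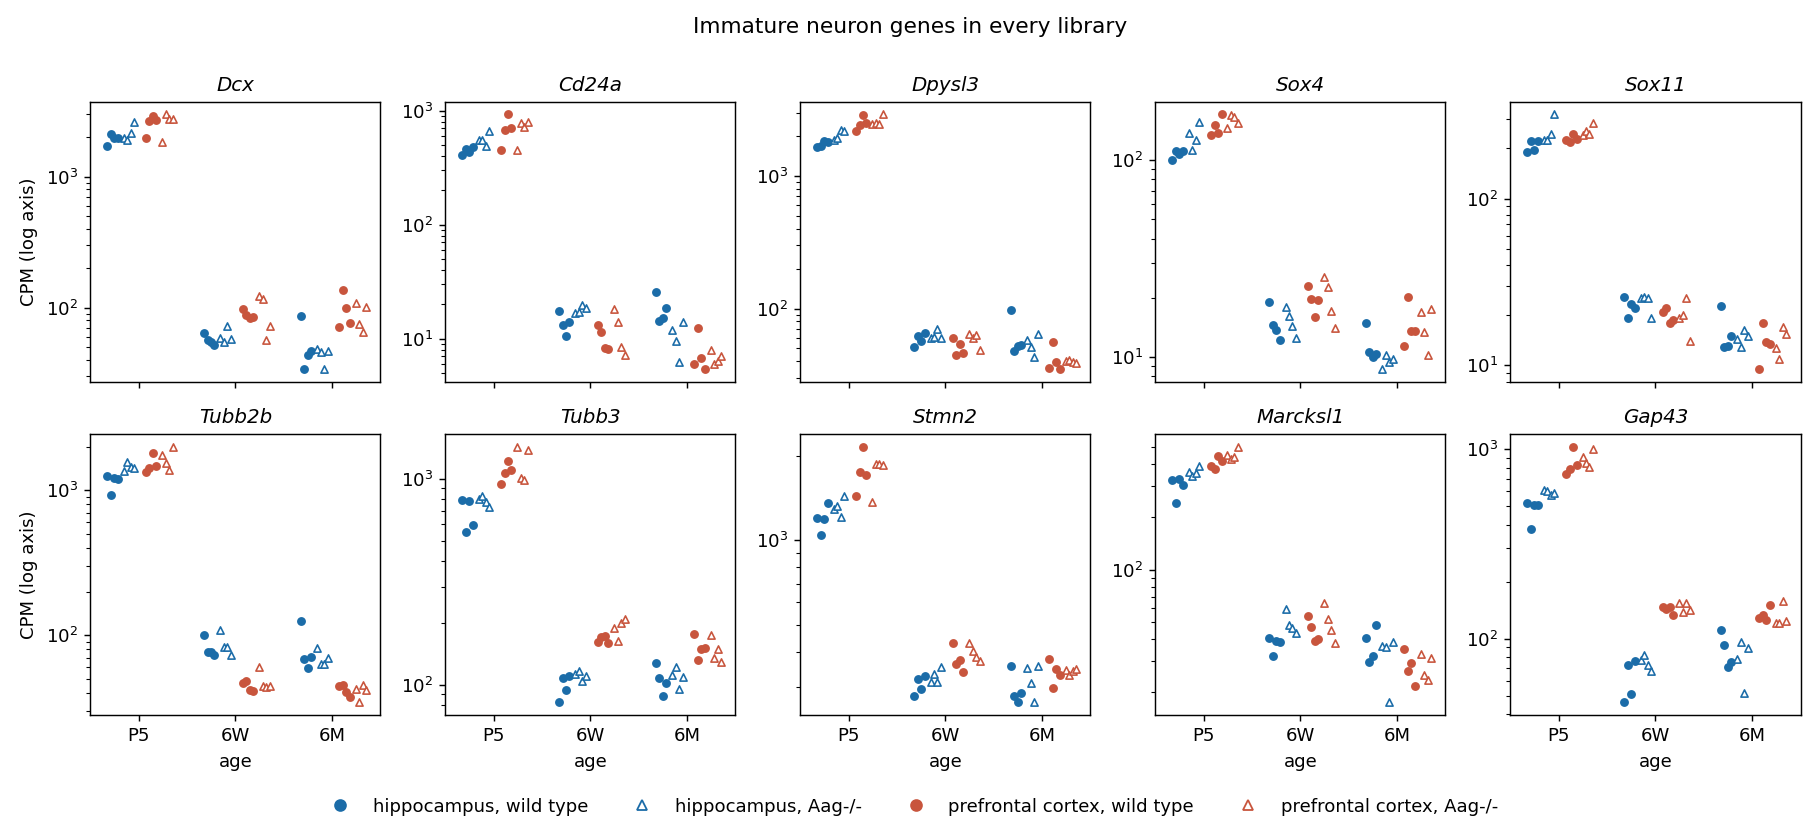
Level of each of the 10 genes in every library (CPM after TMM scaling, log axis) by age; blue is hippocampus, red prefrontal cortex, filled circles WT and open triangles Aag-/-. In every panel the P5 libraries lie above all 6W and 6M libraries, and the drop is longest for Dcx, Cd24a and Dpysl3 in hippocampus, longest for Cd24a, Dpysl3 and Tubb2b in prefrontal cortex, and shortest for Stmn2 in both.

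In hippocampus Dcx had the largest fall of the microtubule genes, and in prefrontal cortex Tubb2b fell further. Dcx binds and stabilises microtubules in migrating neurons, and it stood at 1722, 2128, 1963 and 1975 CPM in the 4 WT hippocampi at P5, at 63.9, 56.8, 54.4 and 52.2 CPM at 6W, and at 87.3, 33.95, 43.3 and 46.45 CPM at 6M. The prefrontal libraries of WT mice held 1972, 2661, 2930 and 2728 CPM of Dcx at P5, 98.65, 88.6, 83.8 and 85.3 CPM at 6W, and 71.2, 136.3, 98.9 and 76.8 CPM at 6M. Every 6W and 6M library was far below every P5 library, and within the WT 6M groups hippocampus replicate 1 and prefrontal replicate 2 stood highest. The log2 change from P5 to 6W was -5.10 (SE 0.214) in WT hippocampus and -4.86 (SE 0.26) in WT prefrontal cortex. Only 0.202% of the tested genes had a lower log2 change than Dcx in WT hippocampus.

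Tubb2b, a beta-tubulin needed for the migration of cortical neurons, fell less in hippocampus than in prefrontal cortex. It stood at 1252, 931.7, 1220 and 1194 CPM in WT hippocampus at P5 and at 100.1, 77.0, 76.9 and 72.5 CPM at 6W, and in WT prefrontal cortex at 1337, 1425, 1802 and 1471 CPM and then at 47.1, 47.98, 41.9 and 41.0 CPM. The 6W values of the tissues did not overlap, with hippocampus higher, while at P5 hippocampus was the lower tissue. The log2 changes were -3.82 (SE 0.183) and -5.09 (SE 0.144). Its close relative Tubb2a, with which reads may be shared, stood at 140 to 178 CPM in WT hippocampus and 131 to 158 CPM in WT prefrontal cortex at 6W, ranges that overlap. At 6M Tubb2a ranged from 141.0 to 159.8 CPM in WT hippocampus and from 113.0 to 142.3 CPM in WT prefrontal cortex (0.25, adjusted p = 0.103 by edgeR), and in Aag-/- mice it was higher in hippocampus (0.35, adjusted p = 0.0176), so that there both tubulins were called in the same direction.

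Tubb3, the beta-tubulin used as a general neuronal marker, stood at 791.1, 553.4, 783.1 and 598.2 CPM in WT hippocampus at P5 and at 82.8, 108.6, 94.3 and 111.1 CPM at 6W. Its prefrontal values in WT mice were 945.3, 1060, 1222 and 1102 CPM at P5 and 160.8, 171.1, 172.1 and 160.0 CPM at 6W. Prefrontal cortex was above hippocampus at both ages without overlap, and the log2 changes were -2.78 (SE 0.127) and -2.72 (SE 0.13). Stmn2, a tubulin-binding protein of growth cones that stays in use in mature axons, had the smallest fall of the set. It went from 1196, 1046, 1193 and 1355 CPM to 277, 320.5, 295.4 and 328.2 CPM in WT hippocampus, a log2 change of -1.97 (SE 0.108). Its prefrontal values went from 1434, 1749, 2153 and 1706 CPM to 427.9, 361.8, 372.7 and 339.4 CPM, a log2 change of -2.24 (SE 0.116).

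Cd24a, a small lipid-anchored surface protein of newborn neurons that ciliated ependymal cells also carry, kept the lowest share of its P5 level in prefrontal cortex at 6W and 6M in both genotypes and in Aag-/- hippocampus at 6M, and Dcx kept the lowest in the other 3 hippocampal groups. Cd24a stood at 409.6, 463.9, 431.4 and 477.6 CPM in WT hippocampus at P5, at 17.5, 13.2, 10.6 and 13.9 CPM at 6W, and at 25.5, 14.35, 15.05 and 18.5 CPM at 6M. The prefrontal libraries held Cd24a at 451.8, 678.9, 930.5 and 704.7 CPM at P5, at 13.2, 11.5, 8.23 and 8.03 CPM at 6W, and at 5.985, 12.5, 6.77 and 5.38 CPM at 6M. At 6M all 4 hippocampi were above all 4 prefrontal libraries, and at 6W the tissues overlapped. The log2 change from P5 to 6W was -5.01 (SE 0.198) in WT hippocampus and -6.09 (SE 0.321) in WT prefrontal cortex.

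Dpysl3, which binds tubulin and actin in the growth cone, went from 1647, 1669, 1849 and 1799 CPM to 50.9, 62.6, 56.6 and 64.9 CPM in WT hippocampus, a log2 change of -4.89 (SE 0.18). In WT prefrontal cortex it went from 2173, 2411, 2900 and 2501 CPM to 60.5, 45.0, 54.4 and 46.0 CPM, a log2 change of -5.61 (SE 0.156). The tissues were apart at P5, with prefrontal cortex higher, and overlapped at 6W. Gap43, a membrane phosphoprotein of growth cones that some mature terminals keep, went from 523.2, 380.6, 511.1 and 507.7 CPM to 46.3, 72.8, 51.1 and 76.5 CPM in WT hippocampus, a change of -2.96 (SE 0.175). The prefrontal values of Gap43 went from 737.1, 792.3, 1030 and 829.6 CPM to 146.8, 143.8, 146.5 and 133.7 CPM, a change of -2.58 (SE 0.109). Its 4 prefrontal libraries at 6W lay close together and all above the hippocampal ones. Marcksl1 went from 325.8, 238.4, 328.1 and 305.6 CPM to 40.8, 32.3, 39.0 and 38.4 CPM in WT hippocampus (-2.99, SE 0.179) and from a range of 376.7 to 447.3 CPM to a range of 39.05 to 54.2 CPM in WT prefrontal cortex (-3.19, SE 0.157).

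The SoxC factors Sox4 and Sox11 fell in both tissues. Sox4 stood at 99.8, 111.2, 107.8 and 111.6 CPM in WT hippocampus at P5 and at 19.0, 14.6, 13.8 and 12.2 CPM at 6W, a log2 change of -2.86 (SE 0.136). The prefrontal values of Sox4 went from 133.6, 150.6, 137.9 and 171.1 CPM to 22.9, 19.7, 16.1 and 19.5 CPM, a change of -2.93 (SE 0.187). Sox11 went from 190.6, 221, 194.7 and 220.8 CPM to 25.6, 19.15, 23.4 and 21.95 CPM in WT hippocampus (-3.20, SE 0.151) and from 225.4, 218, 243.1 and 227.3 CPM to 20.9, 22.0, 17.9 and 18.8 CPM in WT prefrontal cortex (-3.53, SE 0.173). The replicates of Sox11 lay close together at each age, and its tissues overlapped at both ages.

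Among Aag-/- mice the order of the falls was much the same. In Aag-/- hippocampus the log2 changes ran from -5.16 (SE 0.214) for Dcx, from 1908 to 2609 CPM down to 54.4 to 72.7 CPM, to -2.01 (SE 0.108) for Stmn2. In Aag-/- prefrontal cortex they ran from -5.86 (SE 0.317) for Cd24a, from 450.2 to 801.2 CPM down to 7.20 to 18.2 CPM, to -2.15 (SE 0.116) for Stmn2. The difference of the change between genotypes passed the test for 0 of 10 genes in either tissue (0.00562% and 0.011% of all genes called), with 0 at an unadjusted p under 0.05 and 0 by DESeq2. The scaling sets the size of these changes but not their direction. With library size alone in place of TMM the median of all genes shifted by between -0.324 and -0.175 on the log2 scale from P5 to 6W, and in WT hippocampus the split of all called genes went from 5580 higher and 5444 lower to 3210 and 8041, in WT prefrontal cortex from 5543 and 5491 to 4152 and 7090. All 10 genes remained lower in the 4 comparisons, and relative to the median of all genes the 10 stood at a median of -3.12 in WT hippocampus under that scaling.

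What remained at 6W, as a share of the P5 mean of the same tissue and genotype, spanned a wide range within the set. In WT hippocampus it was 2.92% for Dcx, 3.10% for Cd24a and 3.37% for Dpysl3, then 7.10% for Tubb2b and 10.9% for Sox11. It was 12.6% for Marcksl1, 12.8% for Gap43, 13.8% for Sox4 and 14.6% for Tubb3, and 25.5% for Stmn2. WT prefrontal cortex kept 1.48% of Cd24a, 2.06% of Dpysl3, 2.95% of Tubb2b and 3.46% of Dcx, then 8.72% of Sox11, 11.1% of Marcksl1, 13.2% of Sox4, 15.3% of Tubb3, 16.8% of Gap43 and 21.3% of Stmn2. Dcx, Cd24a and Dpysl3 were thus among the 4 lowest in both tissues, and Stmn2 was the highest in both.

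The median share over the 10 genes was 10.7% ± 0.46 (SD, n = 4) in WT hippocampus at 6W and 9.16% ± 2.13 at 6M, where it was 8.10% without replicate 1. In Aag-/- hippocampus it was 10.4% ± 1.35 at 6W and 6.18% ± 0.408 at 6M. In WT prefrontal cortex it was 9.89% ± 1.2 at 6W and 6.33% ± 0.702 at 6M, and in Aag-/- prefrontal cortex 9.34% ± 1.67 and 5.82% ± 0.683. Without the 6 prefrontal libraries high in olfactory bulb markers the 6M shares were 5.76% (WT) and 5.34% (Aag-/-), each over the 2 libraries that remained. The lowest mean share of a gene over 4 libraries was that of Cd24a in Aag-/- prefrontal cortex at 6M, 0.991%. The lowest value of a library was also that of Cd24a, 0.779%, in WT prefrontal cortex at 6M. Without the 6 libraries the Cd24a means at 6M were 0.822% (WT) and 0.897% (Aag-/-).

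**Figure D2:**
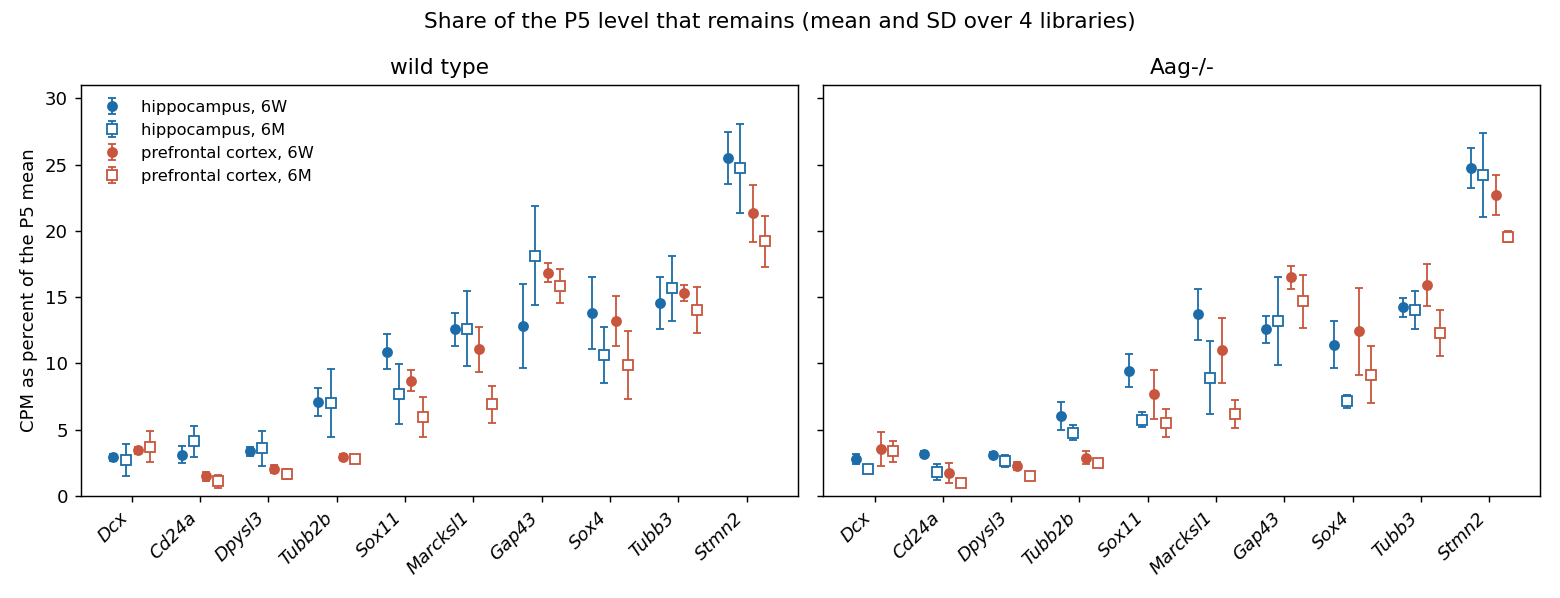
Share of the P5 mean that remained at 6W and 6M for each gene (percent; mean ± SD over 4 libraries), with WT and Aag-/- in separate panels and tissues by colour. In WT at 6W the shares run from 1.48% (Cd24a, prefrontal cortex) to 25.5% (Stmn2, hippocampus).

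From 6W to 6M the changes were smaller than from P5 to 6W, and few passed the test. In WT hippocampus 0 of 10 genes passed (0.157% of all genes), with 4 at an unadjusted p under 0.05 and 0 by DESeq2. The largest was Sox11, at 25.6, 19.15, 23.4 and 21.95 CPM at 6W and 22.8, 12.96, 13.0 and 15.0 CPM at 6M, a log2 change of -0.51 (SE 0.148, adjusted p = 0.224 by edgeR). Its replicate 1 at 6M was the one value inside the 6W range, and without that library the change was -0.72 with an adjusted p of 0.012 (range over all alternatives 0.00168 to 0.516). Gap43 had the largest positive value, 0.50 (SE 0.165, adjusted p = 0.294), with overlapping groups.

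In Aag-/- hippocampus 3 of 10 genes fell from 6W to 6M, where 0.394% of all genes were called lower. Cd24a went from 16.7, 17.0, 19.7 and 18.5 CPM to 11.9, 9.53, 6.19 and 13.9 CPM, a change of -0.80 (SE 0.184, adjusted p = 0.0415 by edgeR). Sox4 went from 18.0, 16.1, 14.4 and 12.4 CPM to 8.68, 10.3, 9.46 and 9.73 CPM, a change of -0.67 (SE 0.14, adjusted p = 0.0185). Sox11 went from 25.45, 25.7, 25.5 and 19.35 CPM to 14.4, 13.0, 16.3 and 14.9 CPM, a change of -0.71 (SE 0.149, adjusted p = 0.0197). None of the 3 overlapped between the ages, and 5 of 10 genes were lower at 6M without overlap, the others being Dcx (-0.47, adjusted p = 0.536) and Marcksl1 (-0.61, adjusted p = 0.154), where 2.31% of all genes were. The count of 3 is fragile. It became 0 without 6W replicate 1, 6W replicate 2 or 6M replicate 1, and 1 without 6W replicate 3, 6M replicate 2 or 6M replicate 3. Without replicate 1 of both ages and genotypes the 3 genes passed (adjusted p = 0.0215, 0.0463 and 0.029 for Cd24a, Sox4 and Sox11). Summed markers of other cells were also lower at 6M in these libraries without overlap, at 2954 to 3875 CPM against 4568 to 9842 CPM for oligodendrocytes (5 of 8 genes called lower) and at 70.7 to 80.1 CPM against 96.05 to 129.5 CPM for their precursors (2 of 5), and their part in the result was not tested. Markers of ependymal cells, which also carry Cd24a, summed to 43.9, 32.6, 21.8 and 31.8 CPM at 6W and to 22.9, 15.4, 13.8 and 18.9 CPM at 6M, with an overlap, 0 of 6 genes called and a median log2 difference of -1.04 over the 6, and their part in the Cd24a change was not tested. Whether the change with age differed between the genotypes was not tested.

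In WT prefrontal cortex 0 of 10 genes passed from 6W to 6M (0.0386% of all genes), with 4 at an unadjusted p under 0.05 and 1 by DESeq2. Marcksl1 went from 54.2, 47.0, 39.05 and 40.4 CPM to 35.1, 26.55, 29.5 and 21.8 CPM without overlap (-0.67, SE 0.149, adjusted p = 0.165 by edgeR), as did Sox11 (-0.55, adjusted p = 0.5), where 2.01% of all genes were lower without overlap. Oligodendrocyte precursor markers went from 86.25 to 103.9 CPM at 6W to 70.4 to 80.3 CPM at 6M in these libraries, and their part was not tested. In Aag-/- prefrontal cortex Marcksl1 went from 64.3, 52.25, 45.15 and 38.3 CPM to 33.1, 24.9, 23.5 and 31.4 CPM and passed (-0.81, SE 0.149, adjusted p = 0.0248), the only one of 10, where 0.0551% of all genes were called lower. The call was lost without 6W replicate 1 or 2 or 6M replicate 2, 3 or 4, and without the 6 libraries high in olfactory bulb markers (adjusted p = 0.241; range over all alternatives 0.000315 to 0.241). In these libraries summed oligodendrocyte precursor markers were at 79.6 to 96.9 CPM at 6W and 68.5 to 76.7 CPM at 6M (0 of 5 genes called), and the mitochondrial share of counts was 14.5% to 17.6% at 6W and 19.6% to 20.9% at 6M. Neither overlapped between the ages, and their part in the Marcksl1 change was not tested.

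At P5 most of the 10 genes were lower in hippocampus than in prefrontal cortex in WT mice, and 3 were in Aag-/- mice. In WT mice 8 of 10 passed the test in that direction, where 12.7% of all genes were called lower. The differences (hippocampus over prefrontal cortex, log2) were -0.82 (SE 0.143) for Gap43, -0.67 (SE 0.124) for Tubb3, -0.63 (SE 0.225) for Cd24a, -0.56 (SE 0.109) for Stmn2 and -0.52 (SE 0.146) for Dpysl3. They were -0.46 (SE 0.155) for Sox4, -0.45 (SE 0.163) for Marcksl1 and -0.39 (SE 0.15) for Tubb2b, with adjusted p from 1.59e-05 to 0.0464 by edgeR over the 8. Dcx (-0.40, adjusted p = 0.167) and Sox11 (-0.14, adjusted p = 0.538) did not pass. Of the 8, Cd24a alone overlapped between the tissues, so that 7 genes were lower without overlap, where 14% of all genes were. Without the 3 libraries that stood apart in regional markers 9 passed, Dcx among them (-0.51, adjusted p = 0.0337; range over all alternatives 0.0337 to 0.345). The count fell to 5 without WT hippocampus replicate 2 or prefrontal replicate 3, to 4 without prefrontal replicate 4, and to 4 with library size alone. The calls that were lost under some alternatives were those of Cd24a and Tubb2b (8 each), Marcksl1 (5) and Sox4 (3). Summed markers of other cells were higher in WT hippocampus than in WT prefrontal cortex at P5 without overlap, at 1432 to 1731 CPM against 824.2 to 873.3 CPM for astrocytes (5 of 6 genes called higher), 89.8 to 103.0 CPM against 41.7 to 64.6 CPM for microglia (5 of 6), 1997 to 7586 CPM against 5.18 to 16.8 CPM for choroid plexus (8 of 8), 134.1 to 144.3 CPM against 107.7 to 131.6 CPM for oligodendrocyte precursors (1 of 5) and 37.15 to 58.55 CPM against 1.999 to 18.7 CPM for ependymal cells (6 of 6). Their part in the tissue differences was not tested. The share of all genes called higher in this comparison is not given here, so these counts of called markers stand without it.

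In Aag-/- mice at P5 only 3 genes were called lower in hippocampus (12.5% of all genes), namely Tubb3 (-0.61, SE 0.124, adjusted p = 0.000163 by edgeR), Gap43 (-0.59, SE 0.143, adjusted p = 0.00163) and Stmn2 (-0.40, SE 0.109, adjusted p = 0.00467). All 10 differences were negative, down to -0.01 for Sox11. Under alternatives Dpysl3 also passed with only the samples compared (-0.32, adjusted p = 0.0463) and without the 3 libraries apart in regional markers (-0.37, adjusted p = 0.0271), and Marcksl1 with only the samples compared (-0.31, adjusted p = 0.0372). Astrocyte markers (1412 to 1644 CPM against 645.7 to 851.6 CPM), choroid plexus markers (13.4 to 1934 CPM against 5.69 to 9.89 CPM) and ependymal markers (28.1 to 84.0 CPM against 2.88 to 15.7 CPM) were again higher in hippocampus without overlap, microglial ones overlapped (75.8 to 92.2 CPM against 53.7 to 81.2 CPM), oligodendrocyte ones were lower in hippocampus (83.65 to 87.9 CPM against 92.1 to 112.4 CPM), and their part in these differences was not tested. Whether the tissue difference itself differed between genotypes was not tested.

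At 6W and 6M the 10 genes no longer shared a direction. In WT mice at 6W, 1 gene was higher in hippocampus (13.1% of all genes) and 4 were lower (13.8%). At 6M 3 were higher (11.3%) and 3 lower (11.2%). In Aag-/- mice the counts were 1 higher (12.7%) and 3 lower (13.6%) at 6W, and 2 higher (9.68%) and 4 lower (10%) at 6M. Tubb2b was the gene higher in hippocampus in all 4 comparisons, and Dcx, Tubb3 and Gap43 were lower in all 4. Summed oligodendrocyte markers were higher in hippocampus without overlap in all 4, as Tubb2b was, and opposite to Dcx, Tubb3 and Gap43. In WT mice they were at 4513 to 10400 CPM in hippocampus and 2271 to 3089 CPM in prefrontal cortex at 6W, and at 3272 to 5086 CPM and 982.6 to 2278 CPM at 6M. In Aag-/- mice they were at 4568 to 9842 CPM and 2074 to 3051 CPM at 6W, and at 2954 to 3875 CPM and 1869 to 2086 CPM at 6M. Of these 8 genes 8 were called higher in hippocampus in 3 of the comparisons and 7 at 6M in Aag-/- mice. Choroid plexus and ependymal markers were also higher in hippocampus without overlap in all 4. The choroid plexus sums were at 54.25 to 1189 CPM in hippocampus and 8.41 to 28.2 CPM in prefrontal cortex at 6W and 129.3 to 2823 CPM and 10.6 to 13.7 CPM at 6M in WT mice, and at 102.6 to 4918 CPM and 9.19 to 16.15 CPM at 6W and 91.8 to 1893 CPM and 12.9 to 28.1 CPM at 6M in Aag-/- mice. The ependymal sums at 6W were at 16.3 to 42.5 CPM and 5.13 to 6.72 CPM in WT mice and 21.8 to 43.9 CPM and 4.91 to 6.57 CPM in Aag-/- mice, and those at 6M are given with Cd24a. Endothelial sums were lower in hippocampus without overlap at 6W in Aag-/- mice, 158.1 to 173.4 CPM against 177.7 to 208.3 CPM. The mitochondrial share of counts was higher in these hippocampi without overlap, at 17.74% to 28.05% against 14.54% to 17.58%. It overlapped between the tissues at 6W in WT mice and at 6M in both genotypes. Of 10 mature neuron genes 1 was higher and 6 lower in hippocampus at 6W and 1 and 2 at 6M in WT mice, and 1 and 5, and 2 and 1, in Aag-/- mice. The part of these cells and of the mitochondrial share in the tissue differences of the 10 genes was not tested.

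**Figure D3:**
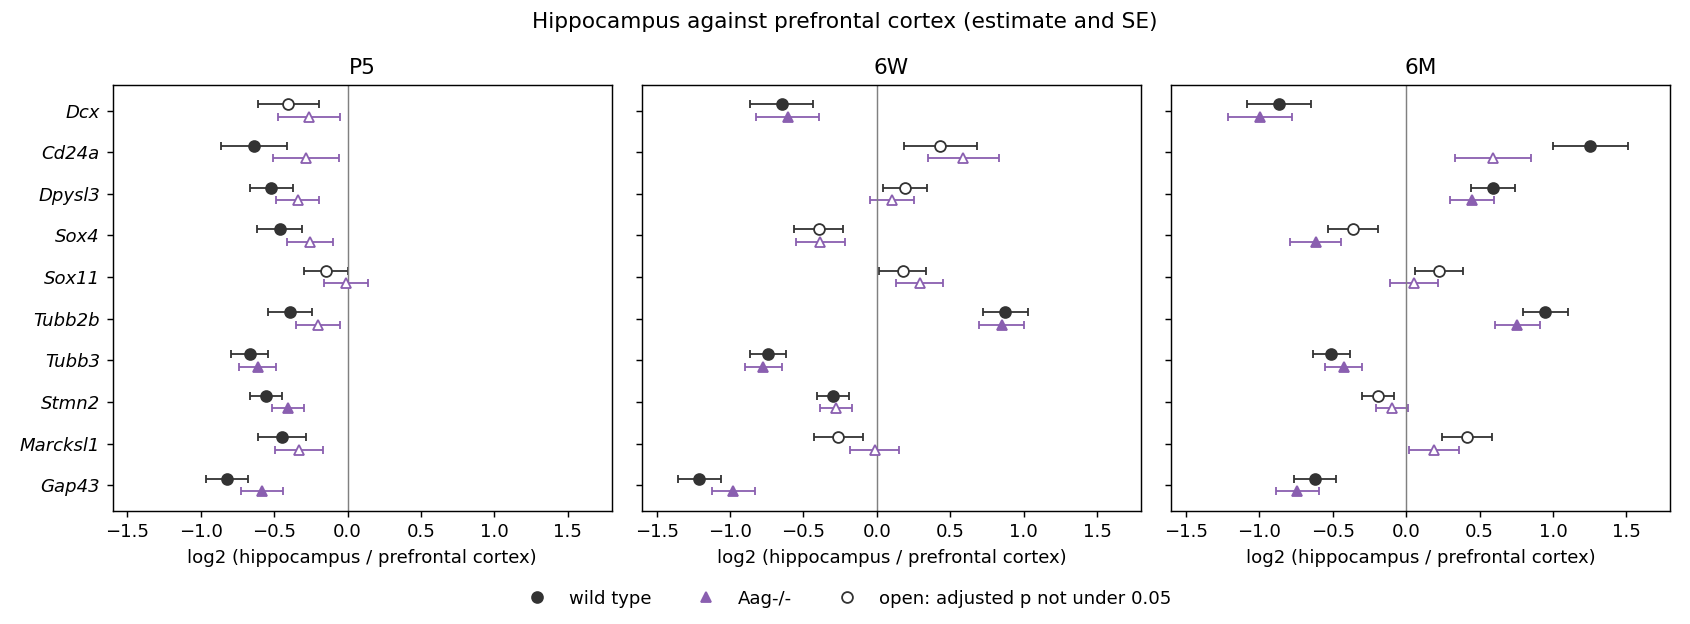
Difference between hippocampus and prefrontal cortex for each gene at P5, 6W and 6M (log2 of hippocampus over prefrontal cortex ± SE; circles WT, triangles Aag-/-; open symbols did not pass an adjusted p of 0.05). All 10 genes lie below 0 at P5, while at 6W and 6M Tubb2b lies above 0 and Dcx, Tubb3 and Gap43 below 0.

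Tubb2b had no overlap between tissues at 6W or 6M. At 6M it stood at 124.4, 68.8, 59.4 and 70.4 CPM in WT hippocampus and at 44.3, 45.1, 40.4 and 37.4 CPM in WT prefrontal cortex. For WT mice the difference was 0.87 at 6W (SE 0.154, adjusted p = 1.49e-05 by edgeR) and 0.95 at 6M (SE 0.154, adjusted p = 4.59e-06), and 0.85 (SE 0.153) and 0.76 (SE 0.154) in Aag-/- mice. The gene passed under every alternative run in all 4 comparisons. Without hippocampus replicate 1, the highest of its group, the WT difference at 6M was 0.66.

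Cd24a was higher in hippocampus at 6M in WT mice, by 1.26 on the log2 scale (SE 0.253, adjusted p = 0.000151 by edgeR), and passed under all alternatives run. At 6W in WT mice it did not pass (0.43, adjusted p = 0.212), nor in Aag-/- mice at 6W (0.59, adjusted p = 0.069) or 6M (0.59, adjusted p = 0.11). The values in Aag-/- mice passed under 4 alternatives at 6W (range 0.00632 to 0.277) and under 3 at 6M (range 0.0231 to 0.357), and whether the tissue difference differed between the genotypes was not tested. At 6M in Aag-/- mice hippocampi held Cd24a at 6.19 to 13.9 CPM and prefrontal libraries at 5.99 to 8.00 CPM. Ependymal markers, summed over 6 genes, were at 18.3, 32.5, 39.5 and 23.9 CPM in WT hippocampus at 6M and at 22.9, 15.4, 13.8 and 18.9 CPM in Aag-/- hippocampus. The prefrontal libraries of that age held 4.32 to 5.86 CPM of them in WT and 4.84 to 5.88 CPM in Aag-/- mice, below every hippocampus, and the part of these cells in the Cd24a values was not tested.

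Dpysl3 passed at 6M in both genotypes. In WT mice hippocampi held 97.0, 47.7, 52.15 and 53.2 CPM and prefrontal libraries 35.9, 55.6, 39.6 and 34.9 CPM, which overlap (0.59, SE 0.15, adjusted p = 0.00251 by edgeR). That difference rests on hippocampus replicate 1, since without it the value was 0.30 with an adjusted p of 0.103 (range over all alternatives 0.000184 to 0.103). The hippocampi of Aag-/- mice held 58.3, 51.3, 43.4 and 64.8 CPM and prefrontal libraries 40.1, 40.9, 39.8 and 38.55 CPM, without overlap (0.45, SE 0.15, adjusted p = 0.0267). That call was lost under 7 of its alternatives, with adjusted p up to 0.132.

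WT hippocampus 6M replicate 1 was the highest of its group in 9 of the 10 genes, Marcksl1 excepted. It was also the lowest of the 4 in summed hippocampal markers and the highest in neocortical ones, 387.7 CPM against 282.1 to 296, and held 31.4% mitochondrial counts against 17.3% to 21.1%. Its part in the tissue differences is seen in the values without it. With that library left out, 2 genes were higher and 4 lower in WT hippocampus at 6M, where of all 19254 genes tested 1922 were higher and 1936 lower, and Dcx stood at -1.22 (adjusted p = 1.81e-05 by edgeR).

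Gap43 and Tubb3 were lower in hippocampus at 6W and 6M in both genotypes, without overlap in any of the 4 comparisons. Gap43 at 6M stood at 110.5, 91.95, 70.9 and 75.2 CPM in WT hippocampus and at 128.1, 132.9, 125.7 and 150 CPM in WT prefrontal cortex. For WT mice its difference was -1.21 at 6W (SE 0.146) and -0.62 at 6M (SE 0.144), and -0.98 (SE 0.145) and -0.74 (SE 0.145) in Aag-/- mice, with adjusted p from 6.63e-09 to 0.000896 by edgeR. Tubb3 at 6M stood at 128.5, 108.2, 88.7 and 101.8 CPM in WT hippocampus and at 176.5, 131.5, 149.5 and 150.4 CPM in WT prefrontal cortex. Its differences were -0.74 (SE 0.125) and -0.51 (SE 0.125) in WT mice and -0.77 (SE 0.125) and -0.43 (SE 0.125) in Aag-/- mice. The Tubb3 call at 6M in Aag-/- mice was lost without the 6 libraries high in olfactory bulb markers (-0.375, adjusted p = 0.112 by edgeR, the highest over all alternatives), without hippocampus replicate 3 and without prefrontal replicate 1. Stmn2 passed at 6W in WT mice (-0.30, SE 0.109, adjusted p = 0.0363) and missed the threshold at 6W in Aag-/- mice (-0.28, adjusted p = 0.0534), where it passed under 5 alternatives (range 0.00593 to 0.164). At 6M Stmn2 did not pass in WT mice (-0.19, adjusted p = 0.228) or in Aag-/- mice (-0.09, adjusted p = 0.643), though it passed in WT mice without the 3 libraries apart in regional markers (-0.29, adjusted p = 0.0269; range over all alternatives 0.0269 to 0.495). The Stmn2 call at 6W in WT mice was lost under 8 alternatives: with no filter on low counts, with the replicate block, without hippocampus replicate 1 or 3 or prefrontal replicate 1 or 3, without the 4 libraries of high mitochondrial share, and without the 6 libraries (-0.23, adjusted p = 0.174, the highest of them). Sox4 passed at 6M in Aag-/- mice (-0.62, SE 0.172, adjusted p = 0.00673, with overlap) and not in the other 3 comparisons at 6W and 6M, where it lay between -0.40 and -0.365. These 3 values passed under some alternatives: at 6W in WT mice under 6 (adjusted p from 0.0183 to 0.209 over all alternatives), at 6M in WT mice under the 3 that leave out hippocampus replicate 1 (-0.51, adjusted p = 0.0364 without that library alone; range 0.03 to 0.708), and at 6W in Aag-/- mice under 4 (range 0.0196 to 0.343). Sox11 and Marcksl1 passed in none of the 4 comparisons at 6W and 6M, with differences between -0.26 and 0.42. Marcksl1 at 6M in WT mice (0.42, adjusted p = 0.0728) passed under 5 alternatives (range 0.0229 to 0.322), and Sox11 at 6W in Aag-/- mice (0.29, adjusted p = 0.183) passed without prefrontal replicate 3 (0.44, adjusted p = 0.0478; range 0.0478 to 0.559).

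Dcx was lower in hippocampus than in prefrontal cortex in all 4 comparisons at 6W and 6M. The differences were -0.65 (SE 0.216, adjusted p = 0.0201 by edgeR) at 6W and -0.86 (SE 0.217, adjusted p = 0.00217) at 6M in WT mice. They were -0.61 (SE 0.215, adjusted p = 0.031) at 6W and -0.999 (SE 0.218, adjusted p = 0.000485) at 6M in Aag-/- mice. Hippocampi held 54.4 to 72.7 CPM at 6W and 34.0 to 48.4 CPM at 6M in Aag-/- mice, against 123.7, 117.2, 56.5 and 72.1 CPM and 109.1, 75.0, 65.2 and 100.5 CPM in prefrontal cortex. The groups overlapped at 6M in WT mice and at 6W in Aag-/- mice. The call at 6W in Aag-/- mice was lost under 7 of its alternatives, with adjusted p up to 0.168, and each of the other 3 calls under 1.

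At 6W and 6M the prefrontal values of Dcx and Cd24a moved with markers of the olfactory bulb. The 6 libraries highest in these markers (replicate 1 of WT 6W and of Aag-/- 6W, replicates 2 and 3 of WT 6M, and replicates 1 and 4 of Aag-/- 6M) held Dcx at 98.65 to 136.3 CPM with a median of 104.8, and the other 10 at 56.5 to 117.2 CPM with a median of 75.9. The mitral cell and progenitor gene Eomes was at 1.93 to 8.89 CPM in the 6 and at 0 to 0.998 CPM in the 10. The olfactory cadherin Cdhr1 was at 46.9 to 94.65 CPM against 15.9 to 33.9, and tyrosine hydroxylase (Th) at 2.69 to 11.9 CPM against 0.565 to 2.80. In the 16 hippocampi of these ages the sum over the 5 markers was 15.5 to 30.1 CPM. The ages fill this split unequally, with 2 of the 6 and 6 of the 10 from 6W, so the members are given within each age. Dcx averaged 111.2 CPM in the 2 and 83.9 CPM in the 6 at 6W (a ratio of 1.32), and 111.2 CPM in 4 and 72.0 CPM in the other 4 at 6M (1.54). Cd24a averaged 15.7 and 9.56 CPM at 6W (1.64) and 8.56 and 5.94 CPM at 6M (1.44). In each of the 4 groups the libraries high in these markers were above all others in both genes. The ratios at 6W and 6M were 1.34 and 1.40 for Sox4, 1.36 and 1.14 for Marcksl1, 1.18 and 1.15 for Dpysl3, 1.22 and 1.05 for Tubb2b, 1.02 and 1.17 for Sox11, 1.155 and 0.966 for Stmn2, 0.978 and 0.959 for Tubb3, and 1.05 and 0.906 for Gap43.

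**Figure D4:**
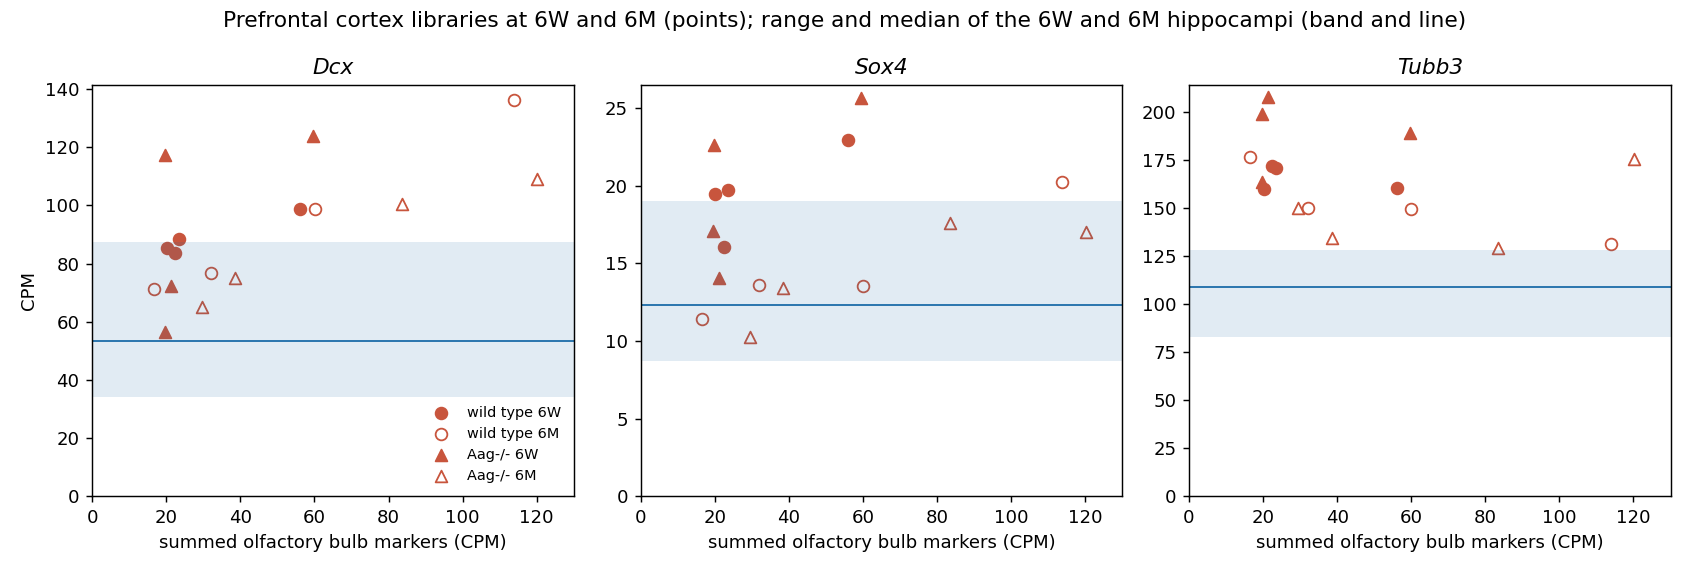
Dcx, Sox4 and Tubb3 (CPM) against the sum of 5 olfactory bulb markers (CPM) in the 16 prefrontal libraries of 6W and 6M; the band and line are the range and median of the 16 hippocampi of these ages. The 6 libraries with marker sums of at least 56.1 CPM hold Dcx at 98.65 CPM or more, and the other 10 reach down to 56.5 CPM.

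Leaving out these 6 libraries left 2 prefrontal libraries in each 6M group and 3 in each 6W group, so a lost call also goes with fewer libraries. The Dcx difference then kept its sign in all 4 comparisons. It was -0.60 (adjusted p = 0.0312 by edgeR; range over all alternatives 9.84e-05 to 0.0523) at 6W in WT mice, -0.49 (adjusted p = 0.169; range 4.92e-06 to 0.169) at 6M in WT mice, -0.44 (adjusted p = 0.137; range 0.00355 to 0.168) at 6W in Aag-/- mice and -0.68 (adjusted p = 0.0509; range 3.61e-07 to 0.0509) at 6M in Aag-/- mice, so that it passed only in the WT juveniles. In these fits 1 gene was higher and 3 lower in hippocampus at 6W in WT mice, 3 and 2 at 6M in WT mice, 2 and 2 at 6W in Aag-/- mice and 1 and 1 at 6M in Aag-/- mice. Of all genes 11.5% were higher and 12.6% lower at 6W in WT mice, 7.36% and 8.48% at 6M in WT mice, 10.7% and 12% at 6W in Aag-/- mice and 5.4% and 6.53% at 6M in Aag-/- mice, so that a count of 1 of the 10 genes lies near the share over all genes. Cd24a was 1.68 higher at 6M in WT mice and passed at 6W in Aag-/- mice (0.86, adjusted p = 0.00632). Sox4 lost its call at 6M in Aag-/- mice (-0.31, adjusted p = 0.316). Striatal markers varied over these prefrontal libraries too, from 105.5 to 792.2 CPM, and the library with the highest sum, Aag-/- 6W replicate 3, had the lowest Dcx, 56.5 CPM. The part of these neighbouring regions in the Dcx difference beyond the values given was not tested.

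The fall itself differed between tissues for 3 of 10 genes in WT mice, by a test of the difference of the 6W against P5 changes (5.09% of all genes were called in that direction). Hippocampus kept more of Tubb2b by 1.27 on the log2 scale (SE 0.214, adjusted p = 3.09e-05 by edgeR), of Cd24a by 1.07 (SE 0.335, adjusted p = 0.0287) and of Dpysl3 by 0.71 (SE 0.209, adjusted p = 0.0178). Cd24a lost its call under 6 alternatives, with an adjusted p up to 0.0932, and Dpysl3 under 1, without prefrontal P5 replicate 3 (0.0533), where the count was 1. In Aag-/- mice Tubb2b alone passed (1.05, SE 0.214, adjusted p = 0.000482), where 4.19% of all genes were called. Cd24a stood at 0.88 there (adjusted p = 0.0922) and passed without the 3 libraries that stood apart in regional markers (1.04, adjusted p = 0.0153), without the 6 libraries high in olfactory markers (1.15, adjusted p = 0.0138), and without prefrontal replicate 1 of P5 or of 6W (range over all alternatives 0.00857 to 0.228). The tissue at P5 enters this difference with the sign turned, so the higher P5 level in prefrontal cortex is part of it.

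Aag-/- and WT mice did not differ in any of the 10 genes at the threshold. For hippocampus 0.118% of all genes were called at P5, 0.0394% in juveniles and 0.045% in adults. For prefrontal cortex the shares were 0.0496%, 0.0331% and 0.0331%. At an unadjusted p under 0.05 there were 3, 2 and 1 of the 10 in hippocampus and 0 at each age in prefrontal cortex, and DESeq2 called 1 in hippocampus at 6M and 0 elsewhere. In P5 hippocampus all 10 genes had positive log2 values (Aag-/- over WT), from 0.14 to 0.34 with a median of 0.28, against a median of 0.02 over all genes. There 7 of 10 were higher in every Aag-/- library than in any WT library, where 2.5% of all genes were. They were Cd24a (0.34, SE 0.163), Tubb2b (0.33, SE 0.163), Sox4 (0.31, SE 0.123), Gap43 (0.30, SE 0.162), Sox11 (0.29, SE 0.136), Marcksl1 (0.27, SE 0.164) and Dpysl3 (0.23, SE 0.152). The lowest adjusted p was that of Sox4, 0.509. Sox4 stood at 99.8, 111.2, 107.8 and 111.6 CPM in WT and at 137.9, 112.3, 127.2 and 157.2 CPM in Aag-/- hippocampus. Choroid plexus markers also separated these groups, at sums of 7586, 7568, 1997 and 3883 CPM in WT and 24.3, 1934, 1894 and 13.4 CPM in Aag-/- hippocampus at P5, as did oligodendrocyte markers, at 91.8 to 106.0 CPM in WT and 83.65 to 87.9 CPM in Aag-/- hippocampus (0 of 8 genes called in either list), and their part in the result was not tested.

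**Figure D5:**
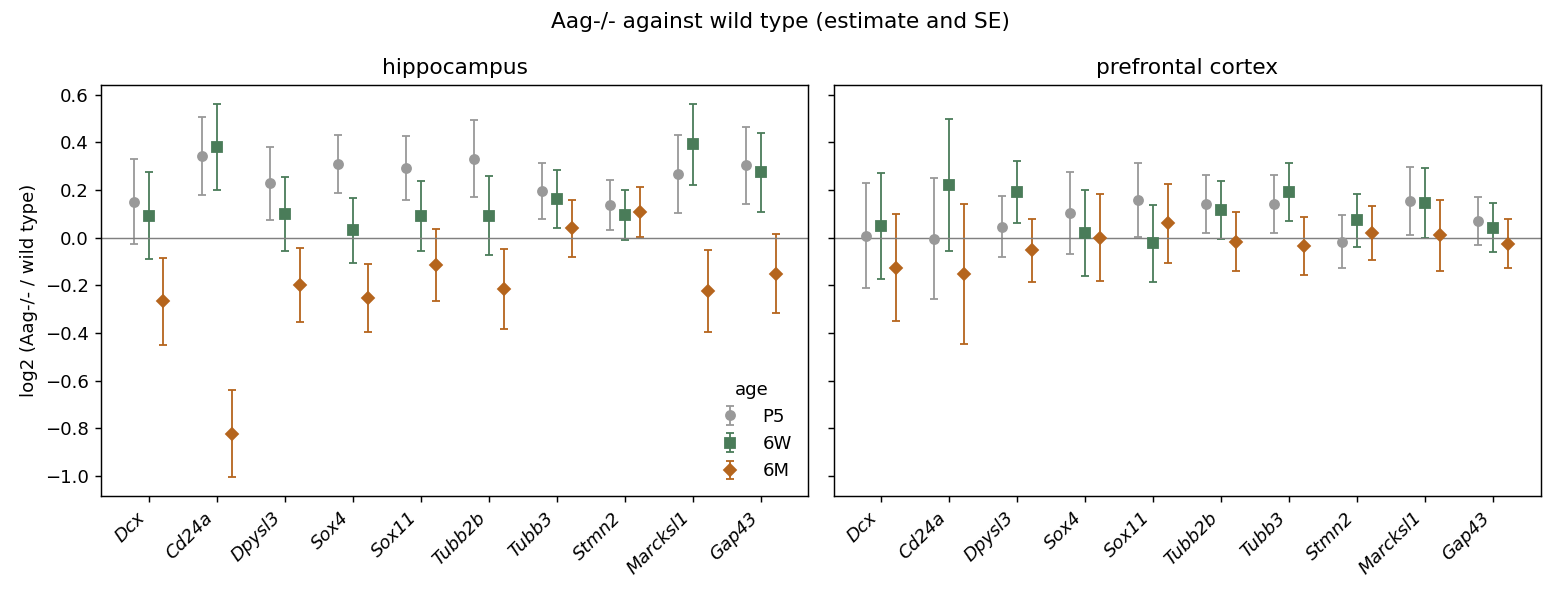
Difference between Aag-/- and WT for each gene (log2 ± SE) at P5, 6W and 6M in both tissues. The P5 hippocampus values all lie above 0, between 0.14 and 0.34, and the lowest value in any panel is that of Cd24a in hippocampus at 6M, -0.82.

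Cd24a in hippocampus at 6M had the largest genotype difference. WT held 25.5, 14.35, 15.05 and 18.5 CPM and Aag-/- 11.9, 9.53, 6.19 and 13.9 CPM, without overlap (1.13% of all genes were lower without overlap). The log2 value was -0.82 (SE 0.184, unadjusted p = 0.000132, adjusted p = 0.213 by edgeR). It passed with no filter on low counts (6.5e-09), with the replicate block (0.0446), by DESeq2 (0.0148) and without Aag-/- replicate 4 (0.0453), in a range over all alternatives of 6.5e-09 to 1, the highest with only the samples compared. The fit with no filter called 123 of 34362 genes, against 8 of 17786 in the main fit, at a log2 value of -0.823. The replicate block called 9 and DESeq2 11 of 17786 genes, and the fit without Aag-/- replicate 4 called 10 of 18143. Without WT replicate 1, the highest of its group, the log2 value was -0.625 (adjusted p = 0.775), and without Aag-/- replicate 3, the lowest of its group, -0.637 (adjusted p = 0.999). Ependymal markers, whose sums are given above, overlapped between the genotypes at 18.3 to 39.5 CPM in WT and 13.8 to 22.9 CPM in Aag-/- hippocampus, with 0 of 6 genes called and a median log2 difference of -0.81, and their part in this difference was not tested. At 6W Marcksl1 was higher in all Aag-/- hippocampi than in the WT ones, at 59.4, 48.4, 46.5 and 43.75 CPM against 40.8, 32.3, 39.0 and 38.4 CPM (0.39, SE 0.17, adjusted p = 1), where 1.62% of all genes were. Endothelial markers separated the same libraries, at 182.9 to 198.0 CPM in WT and 158.1 to 173.4 CPM in Aag-/- hippocampus, and their part was not tested.

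Other genes of young neurons moved the same way after P5, and they are given here from lists that were drawn up with earlier results of these data known. In WT hippocampus 30.6% of all genes fell and 31.4% rose from P5 to 6W. Of 20 further growth cone and microtubule genes, 18 fell and 0 rose in WT hippocampus, 19 fell in each of the other 3 comparisons, and the median log2 change in WT hippocampus was -1.52. The 4 that fell most in WT hippocampus were St8sia2, which makes polysialic acid on NCAM (-5.28), Dpysl5 (-4.76), Crmp1 (-2.55) and the beta-tubulin Tubb5 (-2.49). Of 15 progenitor and neuroblast genes 11 fell and 0 rose in WT hippocampus, led by the axon repellent Draxin (-5.23), Igfbpl1 (-3.95), Eomes (-3.78) and Nnat (-2.58). All 10 proliferation genes fell in all 4 comparisons, led in WT hippocampus by Tk1 (-4.21), Cdk1 (-4.10), Ccnb1 (-3.84) and Mki67 (-3.61). Of 9 genes of the interneuron lineage 5 fell and 2 rose in WT hippocampus: the transcription factors Dlx1 (-1.47), Dlx5 (-1.37) and Dlx2 (-1.34) fell, and Gad1, which makes GABA in mature interneurons, rose (1.29). All 10 mature neuron genes rose, led by the glutamate receptor subunit Grin2a (2.92) and by Camk2a (2.76).

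From 6W to 6M 3 of 10 proliferation genes and 1 of 15 neuroblast genes fell in WT hippocampus, where 0.157% of all genes were called in either direction. In Aag-/- hippocampus 4 and 4 fell, where 0.394% of all genes were called lower. Without the 4 libraries of high mitochondrial share the counts were 1 and 2 in WT and 3 and 2 in Aag-/- hippocampus. No gene of either list passed in prefrontal cortex, and 0 of the 20 growth cone genes passed in either tissue. Igfbpl1 stood at 7.28, 2.77, 4.07 and 5.52 CPM in WT hippocampus at 6W and at 2.21, 0.511, 1.14 and 0.588 CPM at 6M, without overlap.

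Between the tissues at 6W and 6M, more genes of the progenitor and neuroblast list were called higher than lower in hippocampus. That list overlaps the lists of regional identity. Prox1 is also among the hippocampal and dentate genes, Tbr1 among the neocortical genes and Eomes among the olfactory bulb markers. Regional identity and young neurons cannot be told apart in these counts. Over all genes 13.1% were called higher and 13.8% lower at 6W in WT mice, and 11.3% and 11.2% at 6M. At 6W 8 of 15 neuroblast genes were higher and 2 lower in hippocampus, and at 6M 7 and 2. Prox1, which specifies dentate granule cells and stays on in mature ones, led at both ages (3.53 and 2.96), and Tbr1, a factor of cortical glutamatergic neurons, was lower (-1.54 and -1.51). Nnat was higher at 6M (1.79). In Aag-/- mice the counts were 9 and 2 at 6W (12.7% and 13.6% of all genes) and 6 and 3 at 6M (9.68% and 10%), where Eomes, one of the olfactory bulb markers above, was the lowest (-3.62). Without the 6 libraries high in olfactory bulb markers Eomes stood at -0.90 there (adjusted p = 0.805 by edgeR). The neuroblast counts were then 8 and 2 at 6W and 8 and 2 at 6M in WT mice, and 11 and 2 and 4 and 2 in Aag-/- mice, where between 5.4% and 12.6% of all genes were called in each direction over the 4 comparisons. Of the 20 growth cone genes 2 were higher and 6 lower in hippocampus at 6W, and 1 and 4 at 6M (1 and 7, and 2 and 6, in Aag-/- mice), with Stmn1 (-1.27 and -1.35), Fscn1 (-0.89 and -0.64) and Dclk1 (-0.63 and -0.63) lower at both ages. Without the 6 libraries the WT counts were 2 and 6 and 0 and 5, and in Aag-/- mice 0 and 7 and 2 and 3. Proliferation genes gave 2 higher and 1 lower at 6W (Cdk1 1.64, Ccna2 0.86 and Ccnb1 -1.16) and 0 and 1 at 6M (Ccnb1 -1.51). Of the interneuron lineage genes 0 were higher and 2 lower at 6W (Dlx5 -1.33 and Dlx6 -0.85), and 1 was lower at 6M (Sp8 -2.23). In Aag-/- mice 2 of these 9 were lower at 6W and 6 at 6M. Without the 6 libraries 2 were lower at 6M in Aag-/- mice and 0 in WT mice, where Sp8 stood at -0.86 (adjusted p = 0.306 by edgeR). The counts of the proliferation list, of the interneuron list in WT mice and of the growth cone list at 6M in WT mice lie near the shares over all genes.

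Levels can be compared between genes only per length, here as CPM per kilobase of merged exons. On that scale the order in WT hippocampus at P5 was Tubb2b (501), Tubb3 (364.8), Gap43 (315.6), Dpysl3 (263.5), Stmn2 (213.8), Marcksl1 (186.6), Cd24a (172.7), Dcx (154), Sox11 (24.9) and Sox4 (22.4), a ratio of 22.33 between the highest and the lowest. Neighbours in this order overlapped over the 4 libraries except Dpysl3 and Stmn2, and Dcx and Sox11. At 6M the order in WT hippocampus was Gap43 (57.2), Tubb3 (57.2), Stmn2 (52.8), Tubb2b (35.2), Marcksl1 (23.5), Dpysl3 (9.46), Cd24a (7.11), Dcx (4.17), Sox4 (2.39) and Sox11 (1.92), and only Marcksl1 and Dpysl3 were neighbours without overlap. The order depends on the length used. Per kilobase of the longest transcript 6 genes changed rank at P5, and at 6M Stmn2 (86.7) came first, ahead of Gap43 (61.4) and Tubb3 (57.2). In WT prefrontal cortex at 6M Gap43 (88.1), Tubb3 (81.35) and Stmn2 (60.35) again led, ahead of Tubb2b (18.2) and Marcksl1 (17.6), and Dcx (7.58) stood above Cd24a (2.97).

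The genes most like the set, by Pearson r over the 12 group means of log2 CPM with the mean of the 10 among 9732 genes, were St8sia2 (0.99938), Dpysl5 (0.99928), Plppr1 (0.99912), Mex3a (0.99879), Nav1 (0.99873) and Tuba1a (0.99867). The groups share their age steps, which dominate such an r. St8sia2 had group means of 187.4 CPM at P5, 4.875 CPM at 6W and 6.26 CPM at 6M in WT hippocampus, and Tuba1a of 2955, 543.6 and 476.6 CPM. Within the set, r with the mean of the other 9 was lowest for Gap43 (0.9513) and highest for Dpysl3 (0.9961).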

How the data were processed

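Poly(A) libraries of total RNA were made with a stranded kit (Lexogen SENSE) and read as single ends, per the labels. The authors deposited whole-number read counts per Ensembl gene. The submitters' processing notes name bcl2fastq 2.20.0.422, STAR 2.4.0, HTSeq and GRCm38, without role, order or strand setting. The table has 48 columns, each matched to a sample by its title, and 54723 of 54838 IDs have a symbol. No pair of libraries within a group agreed within sampling noise (72 pairs over genes with at least 20 counts, chi-square per degree of freedom 4.34 to 163), so each is 1 replicate, and the labels say that the 4 of a group are separate animals.

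The test was edgeR 4.0.16 (R 4.3.3, quasi-likelihood test, TMM, filterByExpr, Benjamini-Hochberg over all tested genes, threshold 0.05). Changes with age and genotype came from the 24 samples of a tissue (17786 genes in hippocampus, 18144 in prefrontal cortex, 18 residual degrees of freedom), and tissue differences from all 48 samples (18849 genes, 36 degrees of freedom), in 24 comparisons. All 10 members passed the filter in each fit. CPM values use the TMM factors of all 48 samples. On simulated counts with 200 changed genes, changes of 1 and 2 on the log2 scale were recovered for 84% and 91% of genes for 6W against P5 in WT hippocampus (17363 genes), 82% and 96% in WT prefrontal cortex (17692 genes), and 79% and 94% between the tissues in WT at 6M (18298 genes). Of the calls made in these simulations 5.91%, 6.32% and 4.95% were false, slightly above the nominal threshold in both simulated age comparisons. Each comparison was simulated only once, so these shares cannot be told apart from that threshold. The simulations changed 200 genes, whereas 5580 genes were called higher and 5444 lower from P5 to 6W in WT hippocampus. They do not test the scaling or the error rate for changes that wide.

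The members and all lists were chosen with earlier results of these data known. The members are named throughout, and of each other list at most 4 genes, those with the largest called change from P5 to 6W in WT hippocampus, or at most 3 between the tissues at 6W and 6M. The 6 most alike genes were searched at a mean log2 CPM of at least 3. Same-numbered libraries deviated together, with every pair's correlation over 0.1, in 6M against 6W in Aag-/- hippocampus (mean 0.367, 0.287 to 0.42) and in Aag-/- against WT hippocampus at 6W (mean 0.339, 0.129 to 0.654), and the replicate block changed no call there. Alternatives were other size factors, library size alone, no mitochondrial genes (37), no filter, DESeq2 1.42.0, a stricter filter (mean count of 10), replicate blocks, only the samples compared, leaving out each replicate, and leaving out the 3, the 6 and the 4 libraries named above. The mitochondrial share of counts was 9.75% to 11.8% at P5 and 16.3% to 21.85% in the older groups (group means), where hippocampus replicate 1 stood apart as given above.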

Additional observations from a re-analysis of the deposited data

Results flagged for a closer look

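Among 120 sets of 4 replicates (10 genes in 12 groups), 13 had a library far from the other 3, by a gap above Dixon's 95% critical value, where chance gives about 6. In WT hippocampus at 6M replicate 1 was high for Dpysl3 (97.01 CPM against 47.69 to 53.23), Sox4 (14.82 against 9.972 to 10.63) and Tubb2b (124.4 against 59.37 to 70.37). It is the library with the lowest hippocampal markers of its group. Tubb2b was also high in replicate 1 of WT hippocampus at 6W (100.1 CPM against 72.48 to 77.03) and of Aag-/- prefrontal cortex at 6W (60.34 against 44.12 to 44.55). In Aag-/- hippocampus, replicate 3 at 6M was low for Dcx (33.97 CPM against 46.29 to 48.39) and Marcksl1 (17.59 against 36.39 to 38.67), replicate 3 at 6W was high for Dpysl3 (70.59 against 59.97 to 61.51), and replicate 4 at 6W was low for Sox11 (19.35 against 25.45 to 25.69). In WT hippocampus at P5 replicate 2 was low for Gap43 (380.6 CPM against 507.7 to 523.2). In Aag-/- prefrontal cortex at P5 replicate 4 was high for Dpysl3 (2914 CPM against 2447 to 2524) and replicate 1 low for Stmn2 (1369 against 1857 to 1878), and at 6M replicate 3 was high for Gap43 (157.6 against 120.9 to 124.6).

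The change from P5 to 6W differed between the tissues, hippocampus minus prefrontal cortex on the log2 scale, for Tubb2b in WT (1.267, SE 0.214) and in Aag-/- mice (1.054, SE 0.214), and in WT for Cd24a (1.066, SE 0.335) and Dpysl3 (0.711, SE 0.209). Each passed a test of the difference itself.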

How the results depend on the processing

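The fall of all 10 genes from P5 to 6W passed under every alternative run in all 4 comparisons, and no member that passed a test changed sign under any of them. From 6W to 6M the number of members called was 3 with no filter and 1 without the 3 libraries apart in regional markers in WT hippocampus, 1 with no filter and 1 by DESeq2 in WT prefrontal cortex, and 5 with no filter in Aag-/- hippocampus. In Aag-/- prefrontal cortex it was 2 with no filter, by DESeq2 and with only the samples compared, and 0 without the 6 libraries high in olfactory markers. Between tissues it was 4 in WT at P5 with library size alone, 5 in Aag-/- at P5 with only the samples compared, and 2 in Aag-/- at 6M without the 6 libraries. The difference of the falls in Aag-/- mice gave 2 with no filter, without the 3 and without the 6 libraries. The genotype comparison in hippocampus at 6M gave 1, Cd24a, with no filter, by DESeq2 and with the replicate block. Over all genes these 3 settings called 123 of 34362, 11 of 17786 and 9 of 17786 there, against 8 of 17786 in the main fit. For the other counts of this paragraph the share over all genes is not given here, so they are not read as results about the 10 genes. With library size alone the median shares of the P5 level were 8.553% (WT 6W), 8.494% (Aag-/- 6W) and 5.077% (Aag-/- 6M) in hippocampus and 8.53% (WT 6W), 5.444% (WT 6M) and 4.972% (Aag-/- 6M) in prefrontal cortex. Apart from the fewer samples or genes these fits hold, the cause was not tested.

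Leaving out 1 replicate gave 0 to 1 members from 6W to 6M in WT hippocampus, 0 to 2 in Aag-/- hippocampus and 0 to 1 in Aag-/- prefrontal cortex. It gave 4 to 8 between tissues in WT at P5 and 3 to 5 in WT at 6W (3 without prefrontal replicate 1), 1 to 3 and 1 to 2 for the difference of the falls in WT and Aag-/- mice, 0 to 1 for genotype in hippocampus at 6M, and a share of 5.962% to 6.637% in Aag-/- hippocampus at 6M.

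Elsewhere replicate numbers did not pair the samples, and the labels do not say whether a number names the same animal in both tissues: same-numbered libraries of the 2 tissues had mean correlations of -0.239 to 0.183. With the replicate block, Cd24a in hippocampus at 6M differed between genotypes (-0.831, adjusted p 0.0446), Marcksl1 passed between tissues in WT at 6M (0.0478), and no other count of calls moved by over 1.5 times. With each number taken as 1 animal in both tissues, Sox4 in WT at 6W (0.0417), Marcksl1 in WT at 6M (0.0326) and Cd24a in Aag-/- at 6W (0.0366) also passed between tissues. Depth limits little here, since every member kept at least 5.38 CPM in libraries of at least 21615824 counts.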

Other observations

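Genes of other cell types changed over the same step from P5 to 6W in WT hippocampus, where 31.4% of all genes rose and 30.6% fell. All 8 oligodendrocyte genes rose, led by Mobp (log2 change 8.66), Mog (7.71) and Mal (7.06), genes of the myelin sheath. All 6 microglial genes rose, led by Tmem119 (2.81) and P2ry12 (1.75), and 4 of 6 astrocyte genes, led by the glutamate transporter Slc1a2 (2.30) and Aldoc (1.804). Of 5 oligodendrocyte precursor genes Neu4 rose (2.80) and Pdgfra (-0.82) and Cspg4 (-0.78) fell. Of 5 endothelial genes 3 rose, led by Ly6c1 (2.56) and Slco1a4 (2.47), and the tight-junction gene Cldn5 fell (-1.03). Of 8 choroid plexus genes 6 fell, led by the water channel Aqp1 (-4.49) and the transthyretin gene Ttr (-4.11), and of 6 ependymal genes 3 fell, led by the cilia factor Foxj1 (-2.23).

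Regional identity genes were counted over the same step. Of 7 hippocampal and dentate genes 5 rose and 1 fell, with C1ql2 (4.76), Spink8 (4.24), Dsp (3.30) and Iyd (2.48) highest. Of 7 neocortical genes Lamp5 (2.62) and Rorb (1.08) rose in hippocampus, and Rspo1 (-1.16) and Fezf2 (-0.95) fell. Of 7 striatal genes Penk (1.49) and Ppp1r1b (0.90) rose, and Adora2a (-1.602) and Rgs9 (-1.08) fell. The neocortical and striatal counts lie near the shares over all genes given above.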
